A study of Mus musculus with 19 samples.

Results

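Secondary granule and mature neutrophil genes were examined in RNA-seq libraries of mouse bone marrow. The set holds 10 genes of 16842 gene symbols listed in the count files: Ltf, Camp, Ngp, Lcn2, Olfm4, Itgb2l, S100a8, S100a9, Mmp8 and Itgam. They were picked by symbol as products of late neutrophil development, and Olfm4 and Itgb2l were added because they were higher in mutant LK cells, so the MT and WT values of all 10 in LK cells are a description, and how many of them passed the fit over all genes is given only beside the share of all genes that did. All 10 were listed in every library and passed the filter on low counts in each comparison. Marrow was taken from wild-type mice (WT) and from mice with a mutation of Asxl1 (MT), a gene of a chromatin regulator. The labels name neither the allele nor what drives it, and they do not say whether the replicates of a group are separate animals, so p-values measure the spread between these libraries, which may be technical. Myeloid cells sorted for CD11b came from mice aged 4 months (3 MT and 4 WT libraries) and 18 months (3 MT and 3 WT). LK cells, which lack lineage markers and carry c-Kit, came from mice aged 18 months (3 MT and 3 WT). The labels name no treatment.

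Neutrophils fill their granules in sequence as they mature in the marrow. Primary granule proteins such as myeloperoxidase are made first, at the promyelocyte stage, proteins of the secondary (specific) granules follow in myelocytes and metamyelocytes, and gelatinase granule and surface proteins come last. Stem and progenitor cells make little of the later products. The transcription factors C/EBP epsilon, encoded by Cebpe, and PU.1, encoded by Spi1, are known to act on many of these genes.

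Among the 10, Ltf encodes the iron-binding protein lactoferrin, Camp the precursor of an antimicrobial cathelicidin peptide, Ngp a neutrophilic granule protein and Lcn2 a lipocalin that binds bacterial iron carriers. Olfm4 encodes a secreted glycoprotein found in the specific granules of a subset of neutrophils. Mmp8 encodes neutrophil collagenase. S100a8 and S100a9 encode the 2 chains of calprotectin, a calcium-binding protein of the cytosol. Itgam encodes the alpha chain of the integrin Mac-1, which is CD11b itself, and Itgb2l a protein related to integrin beta 2. Reads shared between Itgb2l and Itgb2 cannot be told from unique ones in these counts.

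Of these genes, 4 lie on chromosome 9 of the mouse genome (GRCm38, GENCODE M21 annotation). Camp (chr9:109847379-109849617), Ngp (chr9:110419747-110423012) and Ltf (chr9:111019271-111042767) lie in that order at gaps of 570.1 kb and 596.3 kb, while Mmp8 lies apart at chr9:7558456-7568485. Other genes within these gaps were not looked up. S100a8 (chr3:90668978-90670035) and S100a9 (chr3:90692632-90695721) are 22.6 kb apart. Lcn2 is at chr2:32384633-32388252, Olfm4 at chr14:79984081-80023139, Itgb2l at chr16:96422288-96443619 and Itgam at chr7:128062640-128118491.

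Because the genes were high and low together across the libraries, the bases before their start sites are shown for 4 of them, namely Ltf with the largest fold difference in LK cells, Mmp8 with the smallest difference on the scale of the CD11b level, S100a9 with the highest level per length in CD11b cells, and Olfm4, a gene added for its rise. The RefSeq promoter table (GRCm38.p6) held an entry for all 10. Each sequence is the part of the 250 bases before the RefSeq start that GENCODE does not count as exon, 5′ to 3′ on the gene's strand, and capitals mark matches to the C/EBP motif TTNNGNAA on either strand. The windows are chr9:111019042-111019270 (plus strand) for Ltf, chr9:7558179-7558428 (plus) for Mmp8, chr3:90695722-90695971 (minus) for S100a9 and chr14:80000052-80000250 (plus) for Olfm4, where the RefSeq start lies inside the longer GENCODE gene.
Ltf: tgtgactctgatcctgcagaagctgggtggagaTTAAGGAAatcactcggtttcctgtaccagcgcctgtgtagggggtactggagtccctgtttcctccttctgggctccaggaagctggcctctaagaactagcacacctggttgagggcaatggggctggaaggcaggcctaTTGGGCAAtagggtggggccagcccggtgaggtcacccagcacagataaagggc
Mmp8: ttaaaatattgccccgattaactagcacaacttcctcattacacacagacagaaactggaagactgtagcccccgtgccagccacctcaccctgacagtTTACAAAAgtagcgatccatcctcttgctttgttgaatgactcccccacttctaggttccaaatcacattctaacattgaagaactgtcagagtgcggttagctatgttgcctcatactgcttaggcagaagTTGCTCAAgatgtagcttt
S100a9: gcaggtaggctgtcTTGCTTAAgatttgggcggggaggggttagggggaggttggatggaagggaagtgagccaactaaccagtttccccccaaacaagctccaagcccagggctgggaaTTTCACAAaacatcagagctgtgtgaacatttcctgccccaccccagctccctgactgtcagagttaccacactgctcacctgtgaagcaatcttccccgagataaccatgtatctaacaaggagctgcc
Olfm4: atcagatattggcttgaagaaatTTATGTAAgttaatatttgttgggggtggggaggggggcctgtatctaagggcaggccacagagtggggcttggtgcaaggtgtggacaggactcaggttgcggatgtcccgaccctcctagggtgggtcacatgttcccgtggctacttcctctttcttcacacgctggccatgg
In the full 250 bases, 9 of the 10 genes held TTNNGNAA, all but Camp, against 36.9% of 27025 promoters of that length. The PU.1 core GAGGAA, searched on both strands, was in 7 of 10, against 23.1%, and no match of either motif overlapped one of the other. A match is a run of letters and not a measured site.

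The depth of a library, as its total of gene counts, was 26251822 to 38347903 in CD11b cells at 4 months, 41909460 to 68260809 in CD11b cells at 18 months, and 31853263 to 59882448 in LK cells. The 7SK RNA, a noncoding RNA without a poly(A) tail, was at 6124 to 11880 CPM (without TMM factors) in the 4-month libraries and at 3.33 to 5.37 in all others, so age cannot be told apart from how the libraries were made. Replicates 2 and 3 of each 18-month group were near one another, with a chi-square per degree of freedom of 3.02 to 4.94 over genes for LK and WT CD11b pairs and 6.74 for the MT CD11b pair, against 14.6 to 47.6 for pairs with replicate 1. All were above the sampling noise, and each library was counted as a sample. MT replicate 3 and WT replicate 4 stood apart among the 4-month libraries. Asxl1 was at a log2 difference of MT from WT of −0.13 ± 0.06 (SE) at 4 months, −0.01 ± 0.04 in CD11b cells at 18 months and −0.28 ± 0.06 in LK cells, which does not check the labels because the mutation is not described.

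In CD11b cells all 10 genes were high in both genotypes. Levels are given as CPM, the count of a gene divided by its library's total and set to a common total, scaled with TMM factors computed over the 19 libraries. Together the 10 genes took 4.75 to 6.20% of all gene counts in the 4-month libraries and 12.3 to 14.9% in the 18-month libraries, against 0.0643 to 0.453% in LK libraries. In the plot of all libraries the CD11b points of a gene sit close together and the LK points spread.

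**Figure D1:**
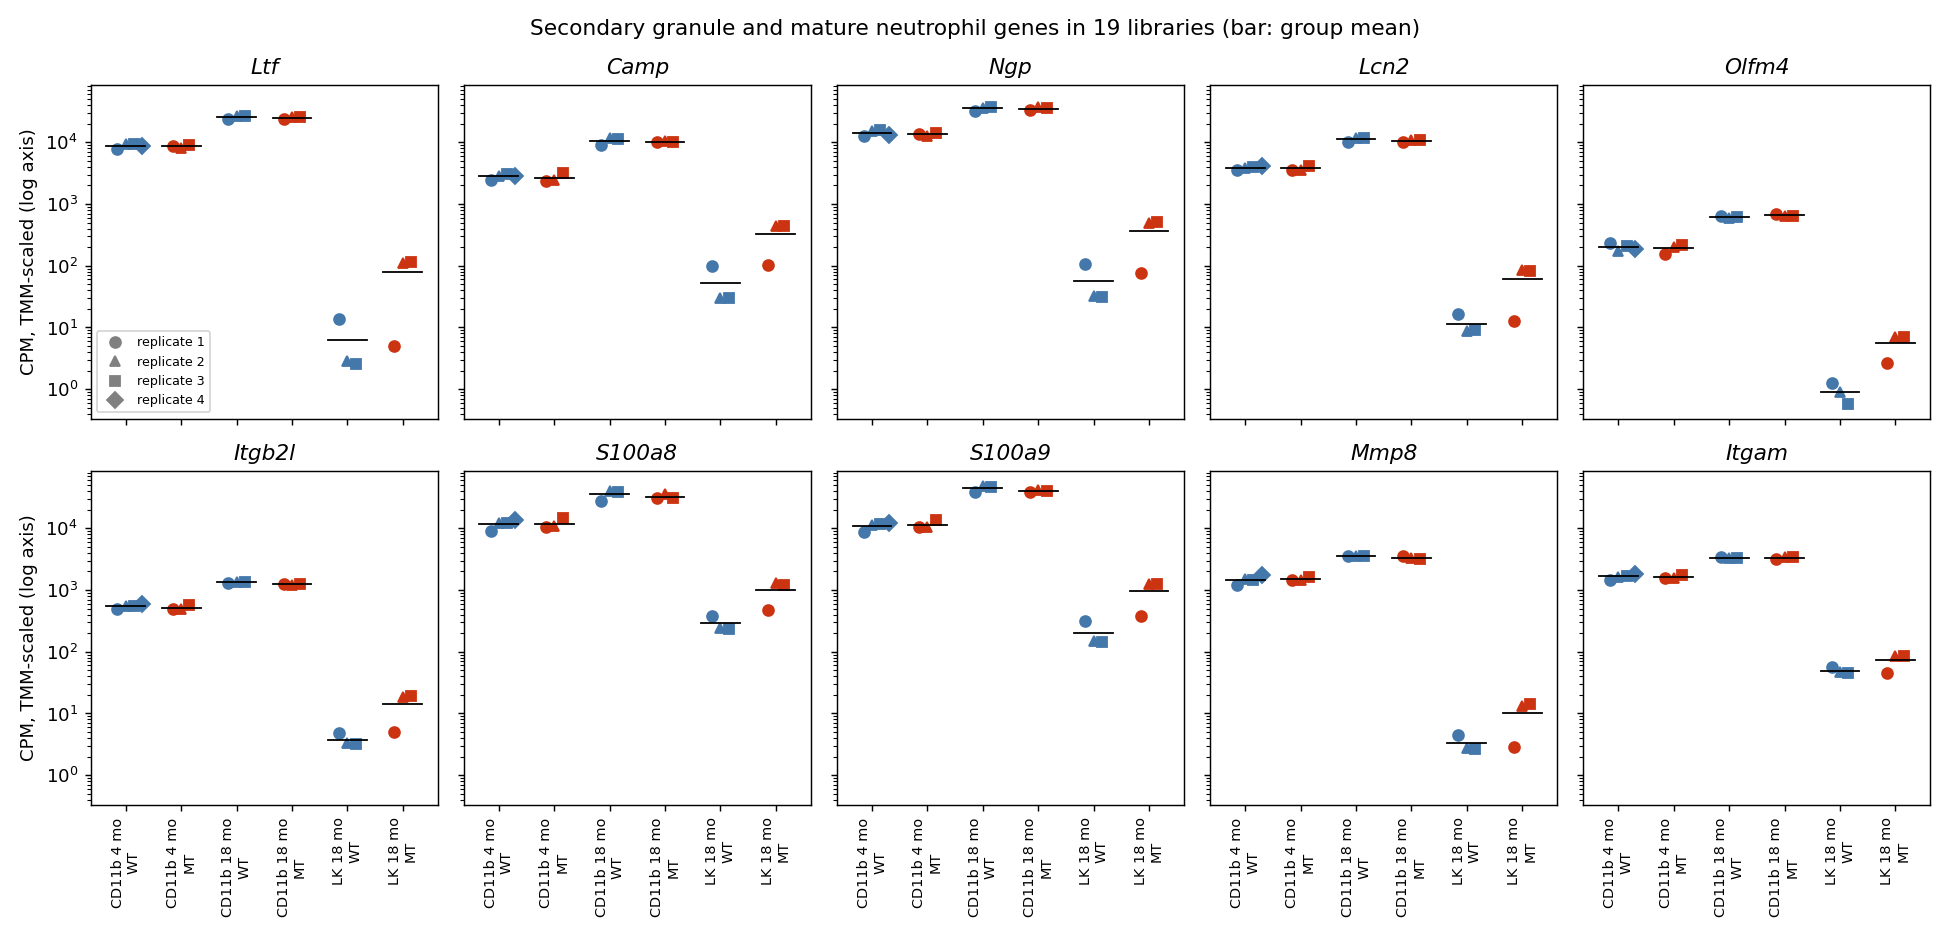
CPM (TMM-scaled, log axis) of each gene in every library, by group, with WT in blue, MT in red, a symbol for each replicate number and a bar at the group mean. All CD11b libraries lie above all LK libraries, and in LK cells MT replicates 2 and 3 lie above the other 4 libraries for all 10 genes.

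Per kb of exon, the order of levels was nearly fixed in CD11b cells. S100a9 stood first in all 4 CD11b groups, at 85598 ± 10414 CPM per kb (SD, n = 3) in WT at 18 months, followed by S100a8 at 50940 ± 9804, Ngp at 28986 ± 1959, Camp at 13969 ± 1870, Ltf at 7471 ± 418 and Lcn2 at 4294 ± 420. Mmp8 (1471 ± 19.4), Itgam (665.1 ± 21.2), Itgb2l (308.5 ± 4.25) and Olfm4 (208.0 ± 8.52) closed the order. At 18 months no neighbours in that order overlapped in either genotype, and at 4 months S100a9 and S100a8 overlapped in both genotypes while all other neighbours were apart. In WT LK cells S100a8 (413.9 ± 122.7 CPM per kb) and S100a9 (387.6 ± 180.2) overlapped at the top, Camp (69.1 ± 51.2) and Ngp (46.5 ± 36.2) overlapped next, and Itgam moved up to the fifth place at 9.89 ± 1.21. Below it Lcn2 overlapped Ltf and Ltf overlapped Mmp8, whereas Itgb2l (0.868 ± 0.214) and Olfm4 (0.309 ± 0.116) were apart from their neighbours.

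At 4 months the genotypes could not be separated for any of these genes. Ltf was at 8594, 8191 and 9152 CPM in the MT libraries and at 7783, 9299, 9258 and 8818 CPM in the WT libraries. The groups overlapped, and the log2 difference was −0.02 ± 0.10 (SE). S100a9 was at 10400, 10396 and 13577 CPM in MT and at 8800, 11456, 11889 and 12177 CPM in WT, again overlapping, with a log2 difference of 0.05 ± 0.14. Olfm4 ran from 154.9 to 219.8 CPM in MT and from 175.9 to 235.8 CPM in WT. Over the 10 genes the log2 difference lay between −0.09 (Camp) and 0.05 (S100a9), 3 were above 0 and the MT and WT libraries overlapped for all. None was called at an adjusted p under 0.05 (edgeR's quasi-likelihood test, adjusted p = 0.999 for each), where 0% of 13755 tested genes were called, and none had an unadjusted p under 0.05, where 444 of all tested genes did. With DESeq2 20 genes were called, none of them among the 10.

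At 18 months 9 of the 10 genes had a lower mean in MT, and the differences were small. S100a9 was at 38545, 41959 and 39715 CPM in the MT libraries and at 38417, 48156 and 47473 CPM in the WT libraries. MT and WT overlapped because WT replicate 1 was low, and the log2 difference was −0.16 ± 0.08 (SE; edgeR's quasi-likelihood test, adjusted p = 0.376). Itgb2l was at 1247, 1221 and 1242 CPM in MT and at 1318, 1330 and 1354 CPM in WT. It alone among the 10 had every MT library below every WT library, a pattern seen in 11.5% of tested genes, and its log2 difference of −0.11 ± 0.04 did not pass (edgeR, unadjusted p = 0.0111, adjusted p = 0.179). Olfm4, at 688.9, 649.2 and 636.5 CPM in MT and at 643.2, 593.2 and 611.9 CPM in WT, had the only difference above 0, a log2 value of 0.09 ± 0.05 with overlapping groups. None of the 10 was called, against 0.336% of 13398 tested genes. Without WT replicate 1, Camp, Lcn2, Itgb2l and S100a9 were called lower in MT, at log2 differences of −0.17, −0.18, −0.12 and −0.26. That fit called far more genes throughout, 1819 of 13663 tested and 870 of them lower.

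Markers of other cells were also compared between the genotypes in the same CD11b libraries at 18 months. All 7 eosinophil markers had a log2 difference below 0 (median −0.67), and their sum was 107.0 to 124.0 CPM in MT and 147.8 to 245.4 CPM in WT, with only Ccr3, an eotaxin receptor gene, called lower, at −0.67 ± 0.07 (SE). The 8 macrophage markers summed to 568.1 to 668.0 CPM in MT and 672.2 to 755.6 CPM in WT (median log2 −0.33, none called). These 2 sums did not overlap between genotypes. All 9 B lineage markers were above 0 (median log2 0.90). Their sums were 154.0, 57.3 and 56.3 CPM in MT replicates 1 to 3 and 48.2, 70.5 and 68.2 CPM in WT replicates 1 to 3. Only MT replicate 1 lay above all WT libraries. Of the tested erythroid markers 7 of 8 were above 0 (median 0.89; sums of 43.3 to 147.2 and 51.2 to 131.6 CPM), and of the T and NK markers 6 of 7 (median 0.54; sums of 36.6 to 42.3 and 37.5 to 43.8 CPM). None of these was called, and the sums overlapped. Monocyte markers, at 3367 to 3854 CPM in MT and 3000 to 3534 CPM in WT, and basophil and mast cell markers, at 12.7 to 30.4 and 24.7 to 44.7 CPM, overlapped too. No listed marker was at 0 in every library of either group, and the part of other cells in the values of the 10 genes was not tested.

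Between ages the WT CD11b libraries differed for every gene of the set. All 10 were higher at 18 than at 4 months with no overlap of the groups and were called (edgeR's quasi-likelihood test, adjusted p from 2.1e-07 for Olfm4 to 8.6e-06 for S100a8), where 36.1% of 13719 tested genes were called higher. The fold was not the same for all. S100a9 rose 3.98-fold (log2 1.99 ± 0.13, SE) and Camp 3.72-fold (1.90 ± 0.11), Olfm4, S100a8, Lcn2 and Ltf between 3.01-fold and 2.89-fold, and Ngp, Itgb2l and Mmp8 between 2.47-fold and 2.38-fold. Itgam, the sorting marker, rose least, 1.99-fold (0.99 ± 0.08). In a fit of all 19 libraries Ltf was no longer called (adjusted p = 0.0521) at the same direction.

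**Figure D2:**
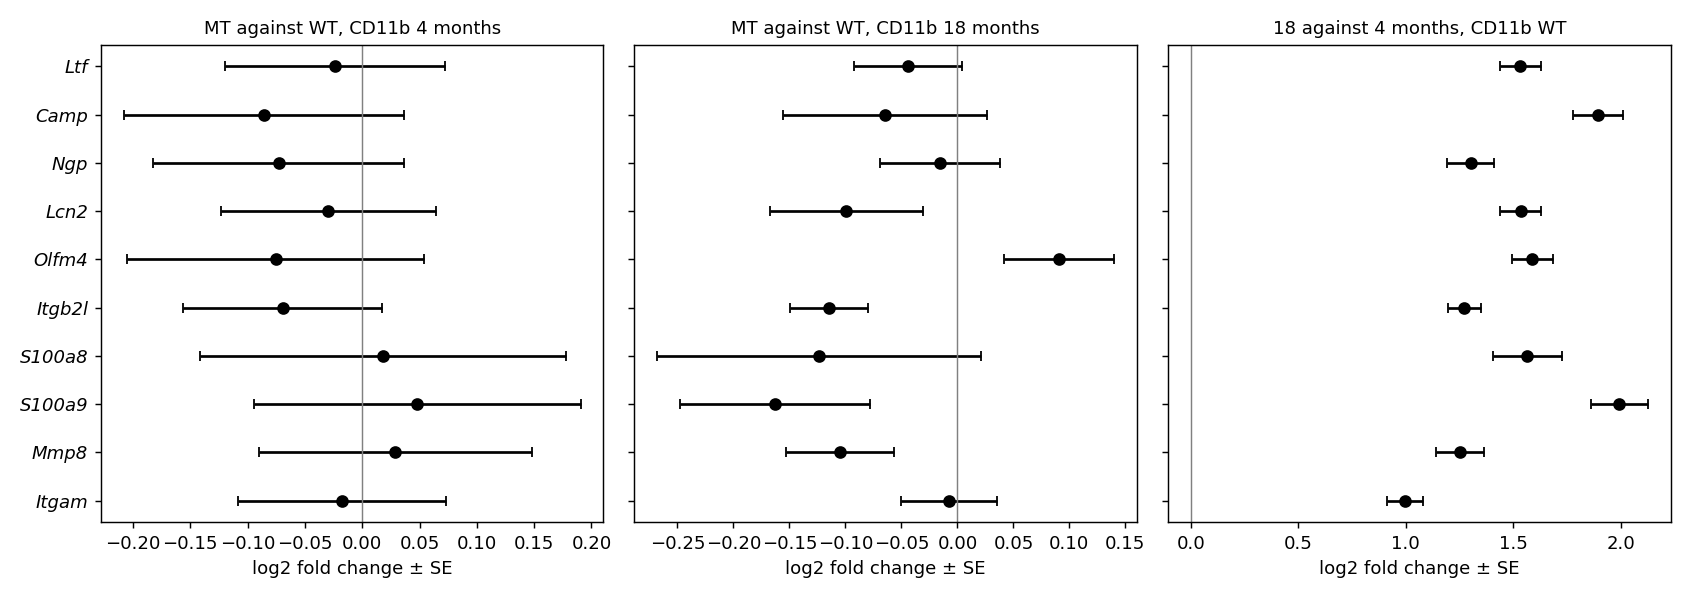
Log2 fold change with its standard error (error bars) for each gene in 3 comparisons of CD11b libraries, from edgeR. Points for MT against WT lie between −0.16 and 0.09, and those for 18 against 4 months lie between 0.99 and 1.99; the horizontal scales differ between panels.

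Other neutrophil genes moved with the set between ages. Of 18 other specific and gelatinase granule genes, 18 were called higher at 18 months (median log2 1.42), among them Hp, which encodes haptoglobin (1.55 ± 0.07), Cd177, a neutrophil surface glycoprotein (1.41 ± 0.08), and Lyz2, a lysozyme (1.56 ± 0.09). Of 20 mature surface and secreted genes 18 were called higher, Ly6g, the gene of the Gr-1 antigen of neutrophils, at 1.66 ± 0.08. Primary granule genes went both ways, with 5 of 11 tested called higher and 5 lower, Mpo (myeloperoxidase) at −2.35 ± 0.19 and Ctsg (cathepsin G) at −2.32 ± 0.21. Over all tested genes the median log2 difference was −0.02. In the same libraries, 5 of 7 eosinophil, 6 of 6 basophil and mast cell, 8 of 9 B lineage, 6 of 7 tested T and NK and 6 of 7 tested erythroid markers were called lower at 18 months, while 8 of 8 macrophage markers were called higher. The 7 eosinophil markers summed to 147.8 to 245.4 CPM against 1623 to 2105 at 4 months, and the 6 basophil and mast cell markers to 24.7 to 44.7 CPM against 310.2 to 375.9. Fewer cells of a type and less RNA per cell cannot be told apart in such bulk libraries, and the part of cell make-up in the age difference was not tested.

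In WT cells at 18 months all 10 genes were lower in LK than in CD11b cells, without overlap, and all were called (edgeR's quasi-likelihood test, adjusted p from 5.4e-10 to 6.6e-05), where 41.7% of 13710 tested genes were called lower. Ltf had the widest gap, 6.33 CPM against 25776 CPM, a log2 difference of −12.08 ± 0.95 (SE). S100a8 at −7.04 ± 0.27 and Itgam at −6.17 ± 0.10 had the narrowest. Itgam encodes the marker that the CD11b cells were sorted for, and the part of the sort in its gap was not tested. Expressed as a percentage of the WT CD11b level, WT LK cells held 0.0246% for Ltf, 0.0931% for Mmp8, 0.102% for Lcn2, 0.149% for Olfm4, 0.160% for Ngp, 0.282% for Itgb2l, 0.453% for S100a9, 0.495% for Camp, 0.812% for S100a8 and 1.49% for Itgam. The defining primary granule gene Mpo went the other way, at 7720 ± 383 CPM in LK and 726.7 ± 29.4 CPM in CD11b cells (SD, n = 3 each). Kit, the gene of the LK sorting marker, was at 210.9 ± 11.7 CPM in LK and 64.6 ± 4.20 CPM in CD11b cells.

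In LK cells the 10 genes were higher in MT on average, and the rise was uneven among both genes and libraries. Ltf was at 5.09, 111.6 and 116.5 CPM in MT replicates 1 to 3 and at 13.6, 2.89 and 2.54 CPM in WT replicates 1 to 3. Ngp was at 76.9, 497.2 and 503.6 CPM in MT and at 107.9, 31.8 and 30.6 CPM in WT. For both, MT replicates 2 and 3 were far above all other libraries, and MT replicate 1 lay below WT replicate 1.

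The same order of libraries was seen in 3 further genes. Lcn2 was at 12.5, 85.1 and 83.4 CPM in MT and at 16.6, 8.91 and 9.10 CPM in WT. Mmp8 was at 2.91, 13.1 and 14.1 CPM in MT and at 4.53, 2.72 and 2.71 CPM in WT. Itgam, the least raised of the 10, was at 45.9, 85.4 and 85.6 CPM in MT and at 56.6, 47.1 and 45.2 CPM in WT.

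In the other 5 genes all MT libraries were above all WT libraries, which held for 22.1% of tested genes. Camp was at 102.6, 436.0 and 432.1 CPM in MT and at 97.1, 30.1 and 29.9 CPM in WT. S100a8 was at 478.1, 1285 and 1188 CPM in MT and at 385.1, 246.6 and 230.0 CPM in WT. Even here MT replicate 1 was close to WT replicate 1, at 1.06 times its level for Camp and 1.24 times for S100a8. S100a9 was at 376.0, 1274 and 1249 CPM in MT and at 310.9, 150.2 and 145.9 CPM in WT. Itgb2l was at 5.004, 18.6 and 19.2 CPM in MT and at 4.82, 3.27 and 3.17 CPM in WT. Olfm4, at 2.63, 7.01 and 6.88 CPM in MT and at 1.27, 0.891 and 0.585 CPM in WT, was the gene in which MT replicate 1 stood highest over WT replicate 1, at 2.07 times. Its values rest on few reads, 157, 435 and 485 counts in MT and 74, 58 and 24 in WT.

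Taking the libraries in turn, MT replicates 2 and 3 were above the other 4 libraries for 10 of 10 genes, WT replicate 1 was the highest WT library for 10 of 10, and MT replicate 1 was above WT replicate 1 for 5 and below it for 5. MT replicate 1 was at between 0.803 (Ltf) and 2.87 (Olfm4) times the WT mean, and the mean of MT replicates 2 and 3 at between 1.72 (Itgam) and 18.0 (Ltf) times. Setting replicate 1 aside in both genotypes, the ratio of MT to WT was 42.0 for Ltf, 16.0 for Ngp, 14.5 for Camp, 9.41 for Olfm4, 9.35 for Lcn2, 8.52 for S100a9, 5.86 for Itgb2l, 5.19 for S100a8, 5.01 for Mmp8 and 1.85 for Itgam. The size of the rise thus rests on MT replicates 2 and 3, which are also near one another over all genes.

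**Figure D3:**
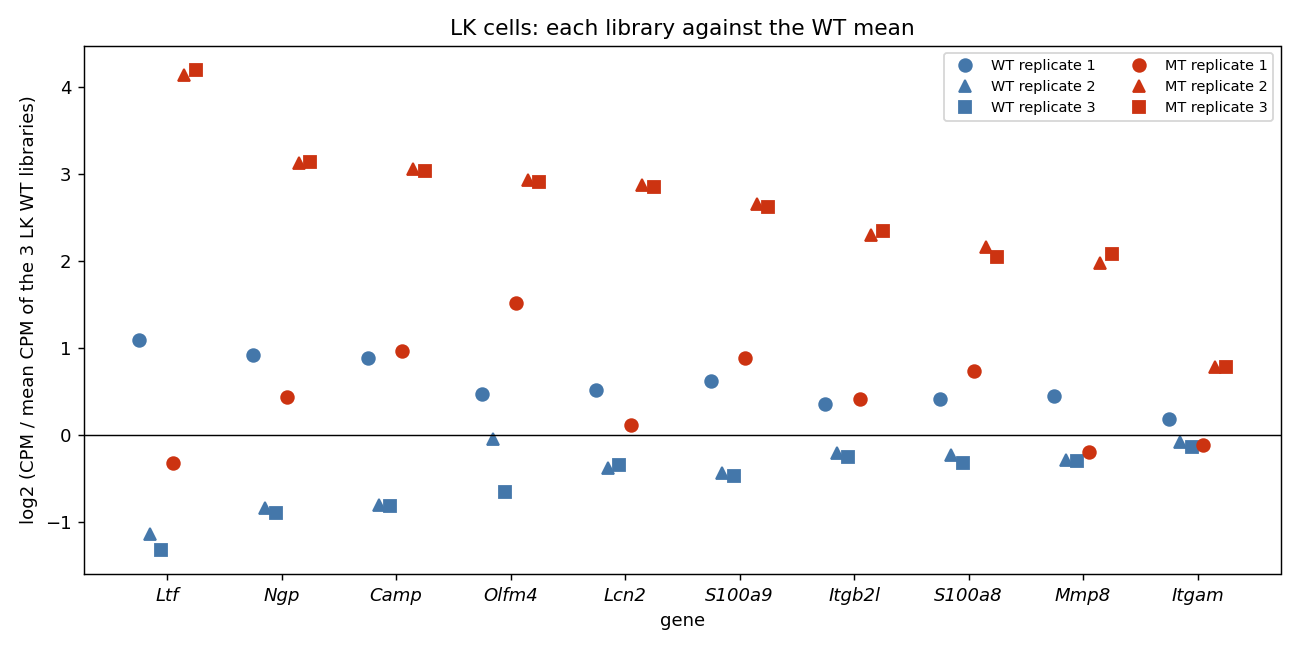
Log2 ratio of each LK library's CPM to the mean CPM of the 3 WT libraries, by gene, with WT in blue and MT in red and a symbol for each replicate number. MT replicates 2 and 3 lie above all other points of a gene; MT replicate 1 is above the WT points for Camp, Olfm4, Itgb2l, S100a8 and S100a9 and among or below them for Ltf, Ngp, Lcn2, Mmp8 and Itgam.

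The fitted log2 difference of MT from WT in LK cells was 3.56 for Ltf, 2.63 for Ngp, 2.60 for Camp, 2.53 for Olfm4, 2.35 for Lcn2, 2.22 for S100a9, 1.89 for Itgb2l, 1.74 for S100a8, 1.56 for Mmp8 and 0.51 for Itgam, with a median of 2.29 against 0.02 over all tested genes. Olfm4, Itgb2l and S100a8 were called higher, 3 of 10, where 13.9% of 14113 tested genes were called higher and 15.9% lower. Nothing is read from that count, since this contrast served to choose members. In LK cells shorter genes had higher differences (Spearman's rho −0.44 over genes with an exon length, which are not independent replicates). The trend at the lengths of the 10 genes ran from −0.02 (Itgam) to 0.29 (S100a9), and the part of gene length in their differences was not tested.

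To place the rise on a common scale, the difference of each MT library from the WT mean was divided by the level in MT CD11b cells at 18 months, less the LK WT level. An even rise in these terms would give the same percentage for each gene. The percentages differed 13.3-fold among the 10 genes in their means. Camp was highest, at 0.496%, 3.79% and 3.75% in MT replicates 1 to 3. S100a8 followed at 0.591%, 3.09% and 2.79%, and S100a9 at 0.436%, 2.69% and 2.62%. These 3 genes were apart from the rest in all 3 libraries.

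A middle group held Ngp at 0.0574%, 1.25% and 1.27%, Itgb2l at 0.101%, 1.20% and 1.25%, Itgam at −0.114%, 1.09% and 1.09%, and Olfm4 at 0.261%, 0.927% and 0.908%. Lowest were Lcn2 at 0.00919%, 0.698% and 0.681%, Ltf at −0.00496%, 0.419% and 0.439%, and Mmp8 at −0.0122%, 0.295% and 0.324%. Between MT replicates 2 and 3, which were near one another over all genes, each gene's percentage was nearly the same. MT replicate 1 was lower for every gene, so the likeness of that pair does not measure the spread between libraries. Ltf had the largest fold and nearly the smallest percentage. Camp, S100a8 and S100a9 were also, after Itgam, the genes at the highest percentage of the CD11b level in WT LK cells.

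**Figure D4:**
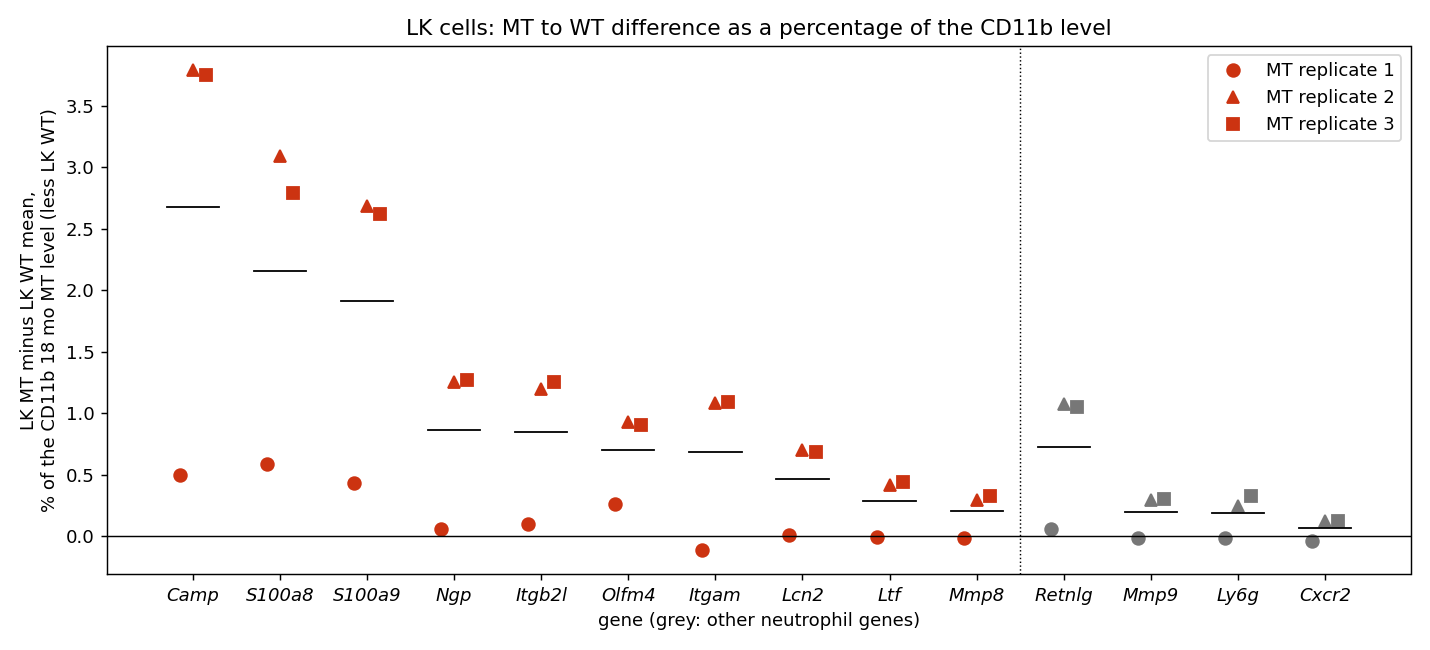
Difference of each LK MT library from the LK WT mean as a percentage of the gene's level in MT CD11b cells at 18 months less the LK WT level; red points are the 10 genes, grey points 4 other neutrophil genes, symbols the MT replicates and bars the mean. Red points for MT replicates 2 and 3 fall from 3.79% and 3.75% for Camp to 0.295% and 0.324% for Mmp8. Those for MT replicate 1 lie between −0.114% and 0.591%. Other neutrophil genes, not drawn, reached higher, such as Cyba at 8.62% and 8.92% in MT replicates 2 and 3.

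The share of each gene in the summed counts of the 10, which no scaling between libraries can alter, differed in the same direction. Ltf made up 14.4 to 16.4% of the sum in the CD11b libraries, 0.508 to 1.36% in LK WT and 0.459 to 3.15% in LK MT. For Ngp the share was 19.9 to 26.5% in CD11b libraries, 6.07 to 10.8% in LK WT and 6.95 to 13.6% in LK MT. Camp went the other way, with 4.54 to 6.37% in CD11b libraries, 5.74 to 9.73% in LK WT and 9.26 to 11.7% in LK MT. S100a8 held 18.3 to 23.3% in CD11b libraries but 38.6 to 47.0% in LK WT and 32.1 to 43.2% in LK MT. Of the CPM added over the WT mean in MT replicate 2, S100a9 made up 34.2%, S100a8 31.8%, Ngp 14.0%, Camp 12.2%, Ltf 3.35% and Lcn2 2.34%. In MT replicate 3 these shares were 34.6%, 29.8%, 14.8%, 12.6%, 3.64% and 2.37%. MT replicate 1 differed, with shares of 40.1%, 44.0%, 4.65%, 11.6%, −0.287% and 0.224% in the same order of genes. There the sum of the differences was 433.4 CPM, against 3139 in MT replicate 2 and 3024 in MT replicate 3.

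**Figure D5:**
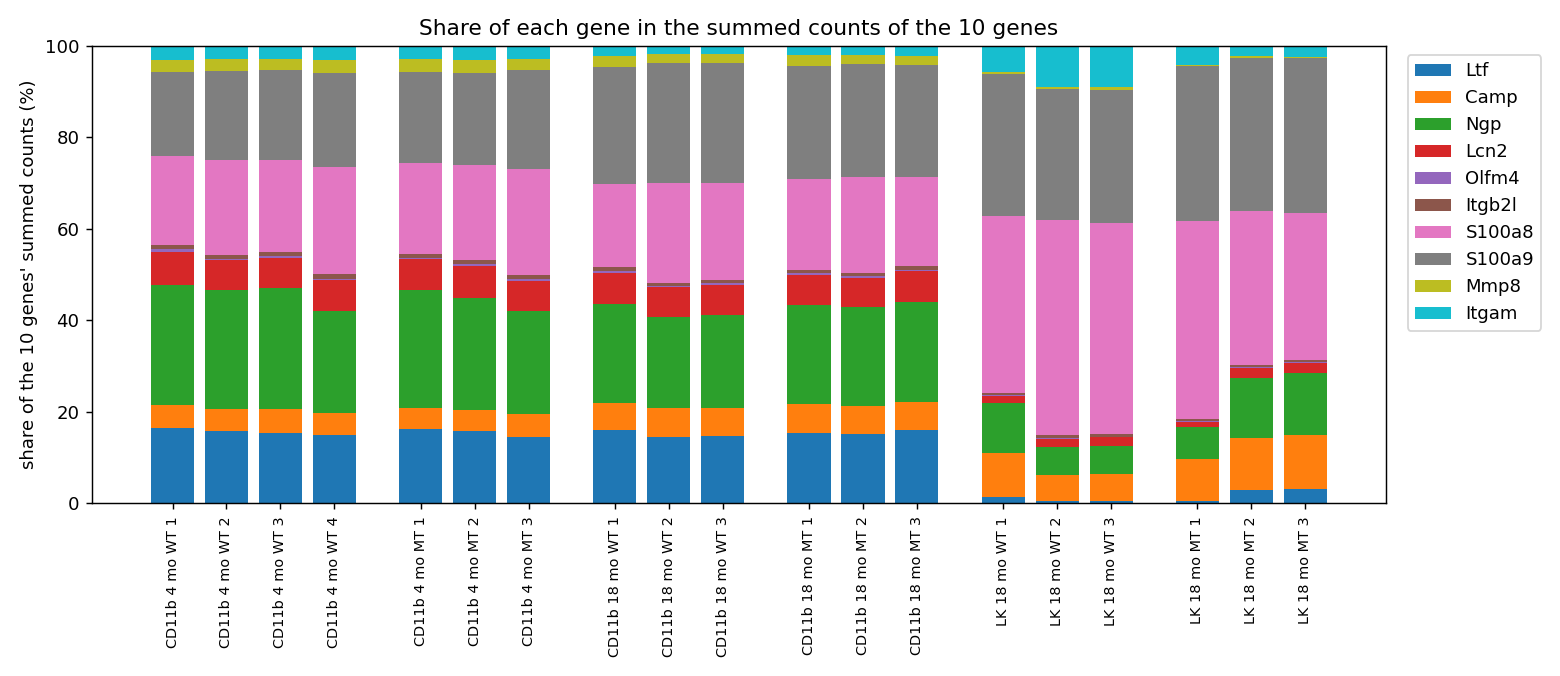
Stacked bars of each gene's share (%) of the summed counts of the 10 genes in each library, grouped by cell type, age and genotype. Ltf (bottom, blue) takes 14.4 to 16.4% in CD11b libraries and at most 3.15% in LK libraries, while S100a8 (pink) takes at least 32.1% in LK libraries.

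Other neutrophil genes in LK cells were also spread on the same scale. Ly6g stood at −0.0170%, 0.249% and 0.328% of the CD11b level in MT replicates 1 to 3, from only 2, 63 and 92 counts, against 7, 3 and 5 counts in WT. Mmp9, which encodes gelatinase B, was at −0.0147%, 0.297% and 0.301%, and Cxcr2, a chemokine receptor gene of mature neutrophils, at −0.0415%, 0.121% and 0.123%. Retnlg, which encodes a resistin-like protein of neutrophils, was at 0.0588%, 1.08% and 1.05%. Over the 16 other specific and gelatinase granule genes whose CD11b level was over 4 times the highest LK level, the median was 0.0526%, 1.31% and 1.40%, and over 19 such mature surface and secreted genes it was −0.00322%, 0.445% and 0.4997%, beside 0.0794%, 1.14% and 1.17% over the 10.

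Primary granule genes and the other neutrophil lists were also higher in LK MT in their medians, which were smaller than the median of the set. Single genes, such as Mmp9, did not all have smaller folds. Over all 14113 tested genes 13.9% were called higher and 15.9% lower. With replicates 2 and 3 summed only 3 genes were called in all, so the counts per list rest on the libraries too. Of the primary granule genes 8 of 11 tested were called higher and none lower, with Elane (neutrophil elastase) at a log2 difference of 0.49 ± 0.11 (SE), Prtn3 (proteinase 3) at 0.39 ± 0.10, Ctsg at 0.24 ± 0.06 and Mpo at 0.23 ± 0.07. Elane was at 2547, 3312 and 3361 CPM in MT and at 2454, 2013 and 1984 CPM in WT, so here too MT replicate 1 was nearest to WT replicate 1. Of the 18 other specific and gelatinase granule genes 8 were called higher (median log2 0.77), with Hp at 0.62 ± 0.15. Among 17 tested mature surface and secreted genes 5 were called higher (median 0.44). Of 15 granulocyte transcription factor genes 6 were called higher and 1 lower, among them Cebpe at 0.87 ± 0.23 and Gfi1 at 0.34 ± 0.10. Csf3r, the receptor gene for G-CSF, was called higher at 0.33 ± 0.10, whereas Itgb2, the partner chain of CD11b, at 0.32 ± 0.15, Mmp9 at 2.46 ± 1.16, Retnlg at 1.45 ± 0.92 and Cxcr2 at 0.20 ± 0.16 were not called.

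Marker sums of the LK libraries are given beside these values, single values in the order of replicates 1 to 3. The 12 neutrophil markers, of which 7 belong to the set, summed to 1171, 3903 and 3796 CPM in MT and to 1067, 577.8 and 552.3 CPM in WT. The 8 macrophage markers summed to 77.9, 110.2 and 104.9 CPM in MT and to 81.4, 54.8 and 54.0 CPM in WT. The 9 B lineage markers summed to 51.9, 85.7 and 87.2 CPM in MT and to 67.5, 46.9 and 46.4 CPM in WT. T and NK markers (7 of 8 listed) summed to 193.6, 252.7 and 252.3 CPM in MT and 198.6, 161.6 and 160.0 CPM in WT. In all 3 of these lists MT replicates 2 and 3 were above the other libraries and MT replicate 1 was below WT replicate 1. The genotypes thus overlapped. Called higher were 1 of 8 macrophage, 1 of 9 B lineage and 2 of 7 tested T and NK markers, and none of these was called lower. Sums were lower in every MT than in every WT library for the 10 monocyte markers (908.0 to 917.2 against 921.7 to 1019 CPM), erythroid markers (8 of 10 listed, 1834 to 2064 against 2184 to 2261 CPM) and the 6 basophil and mast cell markers (231.2 to 240.0 against 252.1 to 273.1 CPM). The monocyte list was split, with 4 of 10 markers called lower and 2 higher. Called lower were 1 of 8 erythroid and 4 of 6 basophil and mast cell markers, and none of these was called higher. Over all tested genes 15.9% were called lower and 13.9% higher. The 7 eosinophil markers (421.0 to 451.3 against 403.0 to 647.5 CPM), the 7 megakaryocyte markers (286.9 to 455.3 against 241.8 to 310.8 CPM) and the 10 stem and progenitor markers (986.2 to 1069 against 1064 to 1090 CPM) overlapped between genotypes. No listed marker was at 0 in every library of either LK group. Kit was at 195.5, 170.0 and 174.1 CPM in MT and at 197.7, 219.8 and 215.4 CPM in WT. The part of these other cells, of gene length and of library make-up in the LK rise was not tested.

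Across the 19 libraries the 10 genes followed one another closely. Each gene's log2 CPM correlated with the mean standardized profile of the set at r between 0.988 (Camp) and 0.999 (Lcn2), a description that mostly reflects the gap between CD11b and LK libraries. Among 12143 other genes the most alike were Chil3 (listed as Chi3l3), a chitinase-like protein gene, at r = 0.999, Cd177 at 0.998, Lin28a, Gca and Chil1 (listed as Chi3l1), each at 0.997. Within the 6 LK libraries alone, the genes most like Olfm4 among 11842 were Fam96b, Gng5 and Pnp, each at r = 0.999, none of them a granule gene, and the other 9 members correlated with Olfm4 at 0.883 (Itgam) to 0.990 (S100a8). With 6 libraries that share 2 pairs of near replicates, such values carry no test.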

How the data were processed

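Whole-number gene counts per symbol were deposited for 19 mouse RNA-seq libraries in 6 groups. Per the labels' protocols a directional library kit was used, and the submitters' processing notes name STAR, HTSeq, DESeq2 and the build mm10, without versions, annotation or strand setting, so overlapping genes and paralogs can share reads. Each cell set lists its own genes, with at least 10 counts in sum. The transposable element counts, also deposited by the authors, served only for the 7SK RNA.

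Counts were tested with edgeR 4.0.16 (filterByExpr, TMM factors, robust quasi-likelihood fit, R 4.3.3), each comparison on its own libraries, with Benjamini-Hochberg adjustment over all tested genes calling genes at an adjusted p under 0.05. Each standard error (SE) is the log2 fold change divided by the square root of F. CPM in the text carry TMM factors over all 19 libraries. Likeness used log2(CPM + 0.5) of genes with a mean of at least 1 CPM. The procedure was tested on simulated counts. Alternatives were RLE factors, no filter, DESeq2 1.42.0, a replicate block, leaving out libraries, summing replicates 2 and 3, a joint fit and, in LK cells, removing the length trend. The genes and lists were chosen with earlier results of these data known. Genes named beyond the 10 are defining neutrophil genes and, per list, called genes with the smallest p. Depth, given with the results, limits precision for genes of few counts, such as Ly6g and Olfm4 in LK cells. A result for a gene of the mature neutrophil list is not reported here.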

Additional observations from a re-analysis of the deposited data

Results flagged for a closer look

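Itgb2l stood out because its MT libraries were all above the WT libraries in LK cells (log2 difference 1.89). In CD11b cells at 18 months they were all below them (log2 difference −0.11). The first pattern held for 22.1% of tested genes and the second for 11.5%. In LK cells MT replicate 1, at 5.004 CPM, was close to WT replicate 1, at 4.82 CPM. The difference between the LK and CD11b effects was not tested. The CD11b value did not pass on its own, and Itgb2l was chosen for its rise in LK MT. No library of the 4-month WT group, the only group large enough to be examined for single outlying values, stood apart for any of the 10 genes.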

How the results depend on the processing

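For the 10 genes, no called difference changed sign under any alternative run. In LK cells the number called, 3 (beside 4206 of 14113 tested genes), rested on the libraries. It was 10 without MT replicate 1 (beside 5144 of 14315). It was 1 in each of the 5 fits that left out another LK library. All genes called there were 991 of 14288 without MT replicate 2 and 1185 of 14309 without MT replicate 3. Without WT replicates 1, 2 and 3 in turn they were 5569 of 14342, 983 of 14287 and 1074 of 14331. The number was 8 with DESeq2 (beside 4522 of 13027) and 10 in the fit of all 19 libraries (beside 2988 of 14112). It was 1 with the length trend removed (beside 2355 of 13738) and 1 with no low-count filter (beside 4073 of 15793). With replicates 2 and 3 summed it was 0 (beside 3 of 14512). Nothing is read from these counts of members. The LK count of 4206 called genes was 2355 with the length trend removed, 3 with replicates 2 and 3 summed, and 983 to 5569 when a library was left out. In CD11b cells at 18 months 45 genes were called, 510 with DESeq2, 1 with replicates 2 and 3 summed and 0 to 1819 when a library was left out (1819 without WT replicate 1, 310 without MT replicate 1); members called ran from 0 to 4. At 4 months the count of 0 was 20 with DESeq2, 5 in the fit of all 19 libraries, 69 without MT replicate 3 and WT replicate 4, and 0 to 1 when a single library was left out. No comparison had every same-numbered pair of samples deviating together at a correlation over 0.1 (LK cells −0.24 to −0.04). Single pairs did, such as replicate 1 of MT and WT at 4 months, at 0.28. The main fits therefore did not pair samples. Such correlations from few libraries cannot exclude a shared animal, and the labels give none. With the replicate block 16 genes were called at 4 months and 0 in CD11b cells at 18 months. In LK cells 3 were called, 0 of them among the 10. With the WT CD11b level at 4 months as reference, the highest percentage, of Camp, was 9.83%, the lowest, of Mmp8, 0.456%, and their ratio 21.6; leaving out a library gave ratios of 12.2 to 15.2, highest percentages of 2.13 to 3.77% and lowest of 0.141 to 0.309%. Camp was highest and Mmp8 lowest in all 9 settings. Few counts limit Olfm4 and Ly6g in LK cells.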

Other observations

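Of 11 primary granule genes tested in CD11b cells at 18 months none was called between MT and WT, and the median log2 difference over the 11 was −0.16. Lyz1 (log2 difference 0.35) and Ctsc (0.04), named after their values were seen, were above 0 and the others below it. Among the latter, Prtn3 was at 212.2 ± 22.9 CPM in MT and 289.8 ± 7.74 CPM in WT (SD, n = 3 each; edgeR's quasi-likelihood test, adjusted p = 0.0608), and Mpo at 568.4 ± 41.1 and 726.7 ± 29.4 CPM (adjusted p = 0.0620). Of the 20 mature surface and secreted genes 1 was called lower there, Ifitm6, an interferon-induced transmembrane protein gene, at 1129 ± 37.4 CPM in MT and 1472 ± 84.0 CPM in WT (edgeR, adjusted p = 0.0291).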
